A study of Homo sapiens with 18 samples.

Results

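Genes of the proteasome were taken as all protein-coding genes whose symbol starts with PSMA, PSMB, PSMC, PSMD, PSME, PSMF or PSMG followed by a number, in the RefSeq gene table of GRCh38.p14. The rule found 50 genes among 19974 protein-coding genes on chromosomes 1 to 22 and X. Of these, 48 encode subunits, activators, an inhibitor or assembly chaperones of the proteasome. The other 2, PSMC3IP and PSME3IP1, encode proteins named for binding a subunit or an activator, and are counted as members because the rule takes them. The 50 genes were spread over many chromosomes, with 8 on chromosome 14 and 8 on chromosome 17, and their median length was 13.6 kb against 24.2 kb for all protein-coding genes.

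The data are CUT&Tag peak lists of A549, an established cell line from a human lung adenocarcinoma. In CUT&Tag a transposase is brought to an antibody on chromatin and tags the DNA beside it. Cells were wild type (WT), knocked out for YTHDF1 (YTHDF1-KO) or depleted of ARID1A by knockdown (siARID1A), and each was profiled with 2 antibodies, against ARID1A, which belongs to SWI/SNF chromatin remodellers, and against YTHDF1, a reader protein of methylated RNA. Each of these 6 groups had 2 samples, which gave 12 peak lists. The labels do not say whether the 2 samples of a group came from separate cultures, and a p-value here reflects only how these samples vary, possibly for technical reasons. They also do not say whether the knockout is 1 clone, and they name no control siRNA for the WT cells. The 6 IgG samples, and a combination of knockout and knockdown that the series design names, were not analysed here.

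The proteasome degrades proteins tagged with ubiquitin. Its 20S core is a barrel of alpha subunits, which gate the entry, and beta subunits, some of which cut proteins, and it is capped by a 19S particle whose ATPases unfold the substrate and whose other subunits bind and strip ubiquitin. After interferon, cells can exchange the constitutive catalytic subunits PSMB5, PSMB6 and PSMB7 for the immunoproteasome subunits PSMB8, PSMB9 and PSMB10, and the PA28 activator of PSME1 and PSME2 can cap the core, which changes the peptides supplied to MHC class I molecules. Proteasome genes are also raised together by the transcription factor NFE2L1 when proteasome activity falls short.

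Promoter sequence of 5 members is shown because the immunoproteasome and PA28 genes differed most from one another in these lists, with PSMD3 as a 19S gene that carried a peak in every list. Each is the 250 bases before the annotated start, read 5′ to 3′ on the strand of the gene, from RefSeq on GRCh38.p14. Capitals mark matches, on either strand, to 5 motifs that were searched. The antioxidant response element core was written TGACNNNGC, with N for any base. The interferon-stimulated response element core was GAAA, any 2 bases and GAAA again. The others were the CCAAT box, the GC box spelled GGGCGG, and an ETS factor site spelled CCGGAAG. None of these stretches overlaps another protein-coding gene of the table. PSMB9 lies on the plus strand at chr6:32853942-32854191, PSMB10 on the minus strand at chr16:67936851-67937100, PSME1 on the plus strand at chr14:24135944-24136193, PSME2 on the minus strand at chr14:24146611-24146860 and PSMD3 on the plus strand at chr17:39980557-39980806.
PSMB9: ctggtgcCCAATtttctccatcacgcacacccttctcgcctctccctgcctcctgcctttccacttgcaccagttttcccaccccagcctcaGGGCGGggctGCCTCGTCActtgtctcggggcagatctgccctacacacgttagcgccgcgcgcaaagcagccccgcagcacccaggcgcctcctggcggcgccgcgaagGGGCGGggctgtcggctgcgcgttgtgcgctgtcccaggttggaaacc
PSMB10: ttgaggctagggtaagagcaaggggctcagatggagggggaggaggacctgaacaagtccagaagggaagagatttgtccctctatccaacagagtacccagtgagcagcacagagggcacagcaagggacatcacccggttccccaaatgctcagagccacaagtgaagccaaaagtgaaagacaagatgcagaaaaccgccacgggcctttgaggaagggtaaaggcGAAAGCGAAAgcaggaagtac
PSME1: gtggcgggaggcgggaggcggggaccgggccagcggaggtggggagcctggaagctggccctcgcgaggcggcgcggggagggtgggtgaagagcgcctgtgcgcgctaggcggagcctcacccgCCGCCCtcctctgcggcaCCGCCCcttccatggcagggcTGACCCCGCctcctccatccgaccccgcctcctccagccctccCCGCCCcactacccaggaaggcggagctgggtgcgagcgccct
PSME2: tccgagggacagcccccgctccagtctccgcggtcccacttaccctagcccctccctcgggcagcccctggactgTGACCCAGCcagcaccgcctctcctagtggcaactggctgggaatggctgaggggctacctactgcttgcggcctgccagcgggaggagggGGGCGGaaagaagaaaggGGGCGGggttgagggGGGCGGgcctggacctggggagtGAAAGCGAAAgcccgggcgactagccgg
PSMD3: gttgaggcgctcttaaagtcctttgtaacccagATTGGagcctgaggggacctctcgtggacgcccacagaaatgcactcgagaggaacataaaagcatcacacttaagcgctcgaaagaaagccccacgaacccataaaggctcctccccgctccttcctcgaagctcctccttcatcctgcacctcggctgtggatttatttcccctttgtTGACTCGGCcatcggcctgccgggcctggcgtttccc

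PSMB10 and PSME2 both hold the 10 letters GAAAGCGAAA shortly before the start, with the first base 21 and 28 bases upstream. PSMG4, an assembly chaperone gene, holds the same letters 33 bases upstream. PSMB8 and PSME1 hold them on the other strand, at the start of PSMB8 and just inside PSME1, outside the stretch printed here. Over the window of 250 bases before to 50 bases after the start, the interferon-stimulated response element core matched in 6 of the 44 members with a promoter in the table (13.6%) and in 3.22% of 15795 promoters. The antioxidant core matched in 14 members (31.8%, against 14% of all), the ETS site in 17 (38.6% against 13.8%), the CCAAT box in 20 (45.5% against 35.8%) and the GC box in 30 (68.2% against 56.6%). Matches of the ETS site and the GC box overlapped in 3 member promoters and those of the CCAAT box and the GC box in 1. The median GC content was 62% in member promoters and 62.3% in all. A match of letters is a description of the sequence and shows no binding.

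A list was said to hold a gene if a peak overlapped the gene or 1 kb on either side by at least 1 bp. The strongest such peak was placed by the percentile of its total signal, which is the authors' value, among all peaks of the same list. A percentile of 90 means that 90% of the peaks of that list had no more signal. Percentiles describe ranks within a list, and since lists differed in length, from 71271 to 106882 peaks with anti-ARID1A and from 40562 to 59632 with anti-YTHDF1, they were not read as changes between lists. Values per list are given in the order WT, YTHDF1-KO and siARID1A, replicate 1 before replicate 2. Sequencing depth is unknown. The gene of YTHDF1 itself was held by 12 lists and that of ARID1A by 11. The anti-YTHDF1 lists of the knockout cells held 50774 and 46225 peaks and those of WT cells 57764 and 40562, and whether the knockout cells lacked the protein was not tested. Epithelial markers were held by 7 (EPCAM), 11 (KRT18 and CDH1) or 12 (KRT8 and CLDN4) lists, and leukocyte markers by 3 (PTPRC) and 5 (CD3E) but also by 12 (CD79A and SPI1), so peak presence did not separate the cell types.

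Nearly all proteasome genes carried anti-ARID1A peaks in every condition. The anti-ARID1A lists held 47 and 47 members in WT, 48 and 47 in YTHDF1-KO and 44 and 46 in siARID1A cells. This was 88% to 96% of the members, and 11.7 to 14.5 percentage points above the share of all protein-coding genes in the same list. In the 6 anti-ARID1A lists together, 44 of 50 members were held by all 6, where 68.3% of all genes were. The anti-YTHDF1 lists held fewer: 41 and 28 members in WT, 26 and 28 in YTHDF1-KO and 42 and 36 in siARID1A cells. All 6 anti-YTHDF1 lists held 16 members, and 35.8% of all genes met that criterion. The same 16 members were held by all 12 lists, against 35% of all genes. Every member was in at least 1 list, so 0 members were in none, where 8.28% of all genes were. The 16 are PSMA7 and PSMB3 of the core, the immunoproteasome gene PSMB10, the 19S genes PSMC3, PSMC4, PSMC5, PSMD1, PSMD3, PSMD8 and PSMD11, the chaperone gene PSMD9, the activators PSME1, PSME2 and PSME3, the inhibitor PSMF1, and PSME3IP1.

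The share of members in the anti-YTHDF1 lists varied from list to list more than that of all genes. The share of members minus that of all genes was 17.5 percentage points in the first WT list and -1.42 in the second. The differences were -8.36 and -2.17 points in YTHDF1-KO and 16.8 and 6.71 points in siARID1A cells. The 3 lists with 52% to 56% of the members were also the 3 shortest of the 6, with 40562 to 50774 peaks, and the other 3 had 57354 to 59632. The part of list length in this was not tested. The WT lists held 82% and 56% of the members, the YTHDF1-KO lists 52% and 56% and the siARID1A lists 84% and 72%. The ranges of YTHDF1-KO and siARID1A each met that of WT.

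**Figure D1:**
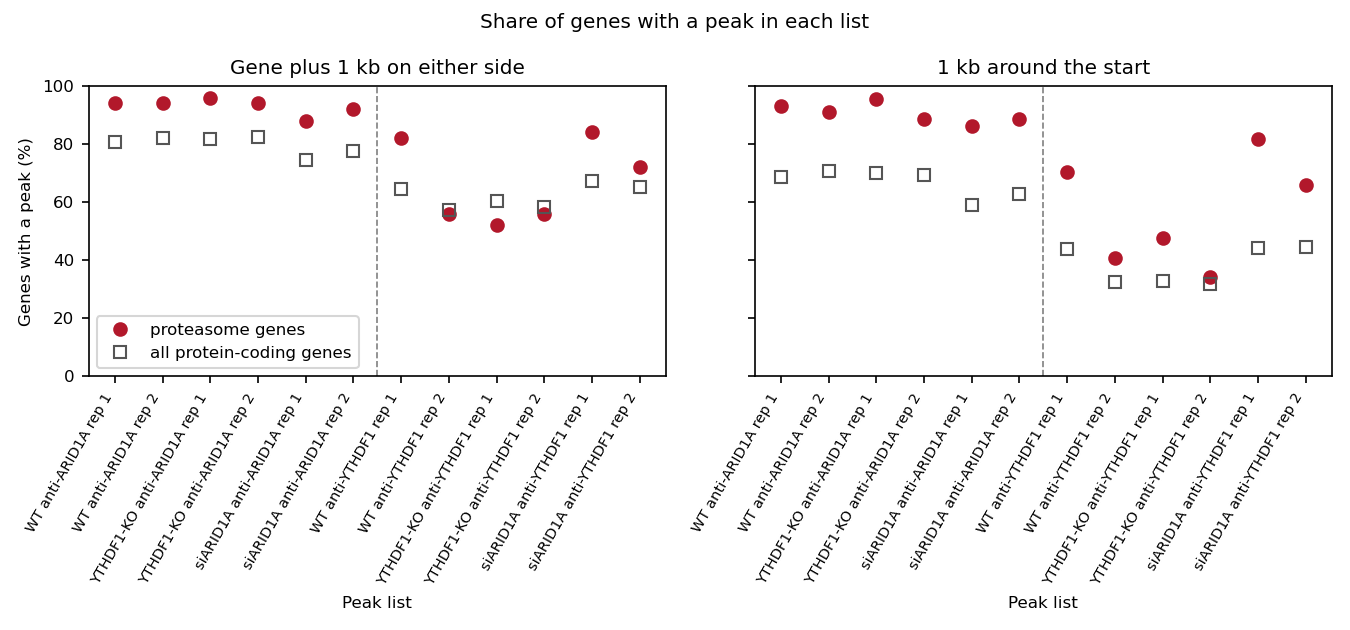
Share of genes with a peak (%, vertical axis) in each of the 12 lists (horizontal axis), for the proteasome genes (filled circles) and all protein-coding genes (open squares), over the gene with 1 kb on either side (left) and over 1 kb around the start (right). Proteasome genes lie above all genes in all 6 anti-ARID1A lists, while in the anti-YTHDF1 lists the whole-gene share lies above all genes in 3 lists and below in the other 3.

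Strength did not follow presence. The median percentile of the members held was 81.4 and 81.0 in the WT anti-ARID1A lists, 82.5 and 85.6 in YTHDF1-KO and 85.3 and 82.9 in siARID1A cells. Over all genes held, the medians of these lists were 81.6 to 86.0. With anti-YTHDF1 the member medians were 69.1 and 59.7, 79.4 and 58.3, and 74.6 and 74.0, against 70.2 to 76.2 over all genes held. Members thus carried an anti-ARID1A peak more often than all genes did, with peaks of about the usual rank for a gene.

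At the starts the same order was seen with both antibodies. For 44 members and 15795 genes in all, the table gives a start site, and a window of 1 kb to either side was used. PSMA7, PSMB1, PSMB6, PSMB7, PSMD4 and PSMG3 have no start there. Anti-ARID1A lists held 86.4% to 95.5% of member starts, against 59.1% to 70.6% of all starts. All 6 of these lists held 37 member starts (84.1%), where 51.4% of all starts were held. Anti-YTHDF1 lists held 70.5% and 40.9% of member starts in WT, 47.7% and 34.1% in YTHDF1-KO and 81.8% and 65.9% in siARID1A cells, and 31.8% to 44.5% of all starts. In all 6 of these lists 10 member starts (22.7%) had a peak, against 13.4% of all starts. The same 10 were held by all 12 lists, against 13.2% of all starts. The member share was above that of all genes in each of the 12 lists.

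Peaks of the members lay close to the starts. Of the peaks of a gene in a list, the one whose place of highest signal was nearest the start lay a median of 147 bp away with anti-ARID1A, over 243 pairs of gene and list, and 90.9% were within 1 kb. With anti-YTHDF1 the median was 261 bp over 174 pairs, with 81.6% within 1 kb. Taking the nearest of several peaks favours short distances. The same measure was not computed for all genes, so it is not read as particular to the members. The strongest peak was within 1 kb of the start in 78.6% and 65.5% of pairs. Its median width was 1.99 kb with anti-ARID1A and 1.32 kb with anti-YTHDF1. The gene windows of 29 members touch that of another protein-coding gene, at either end, and in 179 of 480 pairs of gene and list (37.3%) the strongest peak was also within 1 kb of another gene, so that such a peak cannot be given to the member alone.

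**Figure D2:**
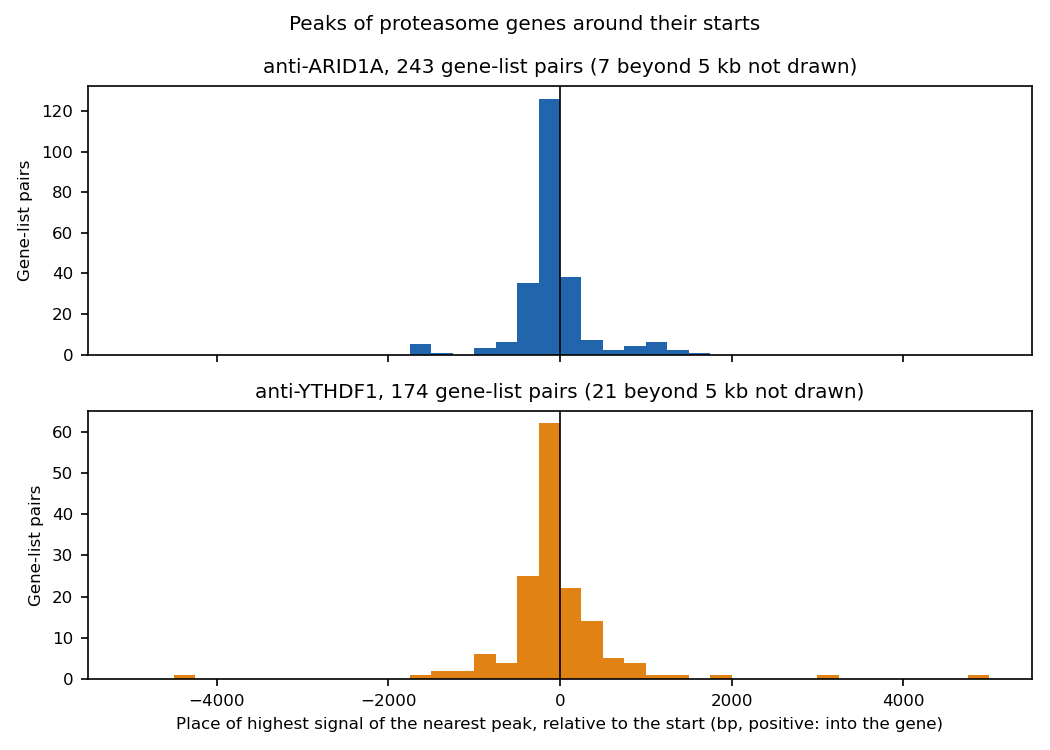
Number of pairs of gene and list (vertical axis) by the place of highest signal of the peak nearest the start, in bp from the start (horizontal axis, positive into the gene, bins of equal width), for anti-ARID1A (top) and anti-YTHDF1 (bottom). Both distributions pile up just before the start, with medians of the distance of 147 and 261 bp, and 7 and 21 pairs lie beyond 5 kb and are not drawn.

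The 7 alpha subunit genes of the core were held by all 6 anti-ARID1A lists. They were held in 29 of 42 possible pairs of gene and list with anti-YTHDF1. PSMA7 alone of the 7 was in all 12 lists. The median percentile over the pairs held was 76.8 with anti-ARID1A and 57.8 with anti-YTHDF1. PSMA6 had the highest anti-ARID1A median of the alpha genes (lowest 80.7, median 84.5, highest 86.6), while PSMA7 ranged from 19 to 87.3 and PSMA4 from 37.7 to 78.2. PSMA8, a testis-specific replacement of PSMA7 in the core, was held by no anti-ARID1A list and by 2 anti-YTHDF1 lists, the second of WT at percentile 45.2 and the first of siARID1A at 46.8. Those peaks had their highest signal 60742 and 19851 bp downstream of the start, and no list held the start itself.

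The 7 constitutive beta genes gave 41 of 42 pairs with anti-ARID1A, the missing one being PSMB4 in the first siARID1A list. With anti-YTHDF1 they gave 27 of 42. PSMB3, a structural subunit, was in all 12 lists with percentiles of 84.7 to 96.1 (anti-ARID1A) and 50.9 to 93.6 (anti-YTHDF1). PSMB4, also structural, was at the other end with 1 anti-YTHDF1 list at percentile 12.7. PSMB11, the thymus-specific catalytic subunit, was in all anti-ARID1A lists at 92.2, 92.1, 92.2, 93.3, 77.1 and 88.8. It was in 4 anti-YTHDF1 lists, at 89.4 and 39.7 in WT, 85.9 in the first YTHDF1-KO and 96.3 in the first siARID1A list. PSMB11 lies 6.99 kb from PSMB5. In 7 of its 10 lists the strongest peak was also within 1 kb of another gene, which was not PSMB5. The 2 tissue-specific core genes thus stood at opposite ends, PSMB11 in 10 lists and PSMA8 in 2.

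The constitutive catalytic genes PSMB5, PSMB6 and PSMB7 were held in 10, 11 and 11 of 12 lists. PSMB5, which carries the chymotrypsin-like activity, had anti-ARID1A percentiles of 82.2, 76.0, 79.5, 84.3, 87.6 and 77.3. Its anti-YTHDF1 percentiles were 82.8 and 74.8 in WT, 67.9 in the first YTHDF1-KO list and 74.7 in the first siARID1A list, with no peak in the other two. PSMB6, of caspase-like activity, ranged more widely, at 70.3, 56.8, 19.8, 73.4, 82.2 and 56.5 with anti-ARID1A. With anti-YTHDF1 it was at 52.8 and 31.0 in WT, 32.3 in the first YTHDF1-KO list, and 85.0 and 64.5 in siARID1A cells. PSMB7, of trypsin-like activity, was at 73.4, 72.0, 68.5, 76.7, 65.1 and 54.9 with anti-ARID1A. In all of these but the second siARID1A list the strongest peak lay inside this long gene (chr9:124353465-124415442), far from either end. Its highest signal there was between positions 124392890 and 124393119. With anti-YTHDF1 it was at 75.8 in the first WT list and at 15.8, 32.7, 8.19 and 28.1 in the others that held it.

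The 3 immunoproteasome genes did not form a group. PSMB10 was in all 12 lists and among the strongest members. Its percentiles were 92.5, 91.5, 94.1, 93.1, 88.4 and 92.4 with anti-ARID1A and 82.9, 91.7, 92.2, 94.7, 76.8 and 92.9 with anti-YTHDF1. By total signal, each constitutive catalytic gene was below PSMB10 in every anti-ARID1A list. By the highest signal of the same peaks, PSMB5 was above PSMB10 in the first WT list (percentile 92.0 against 88.7). It was also above in the second siARID1A list (90.5 against 87.1). The 2 genes were equal in the first YTHDF1-KO list, and PSMB5 was below in the other anti-ARID1A lists. PSMB8 had 1 peak in 12 lists, in the first WT anti-YTHDF1 list at percentile 23.2, and PSMB9 had 2, at 36.5 in the first YTHDF1-KO anti-ARID1A list and at 44.2 in the second siARID1A anti-YTHDF1 list. Each of these 3 peaks was also within 1 kb of another gene, TAP1 or TAP2, which encode the peptide transporter of the class I pathway. The constitutive set was held in 32 of 36 pairs and the immunoproteasome set in 15, of which 12 came from PSMB10. Gene length ran from 2332 bp (PSMB6) to 61978 bp (PSMB7) in the first set. In the second it ran from 2345 bp (PSMB10) to 5660 bp (PSMB9). The part of length in these counts was not tested. PSMB8, PSMB9 and PSMA8 were the members held by at most 3 of the 12 lists, and 17.1% of all genes were held by so few.

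The peak of PSMB10 was centred inside this short gene (chr16:67934506-67936850) rather than at the printed promoter. With anti-ARID1A the place of highest signal nearest the start was 1017 to 1195 bp into the gene in the 6 lists. With anti-YTHDF1 it ran from -888 bp, upstream of the start, to 1082 bp, with a median of 728.5 bp. The peaks were wide enough to cover the start in 10 of the 12 lists.

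**Figure D3:**
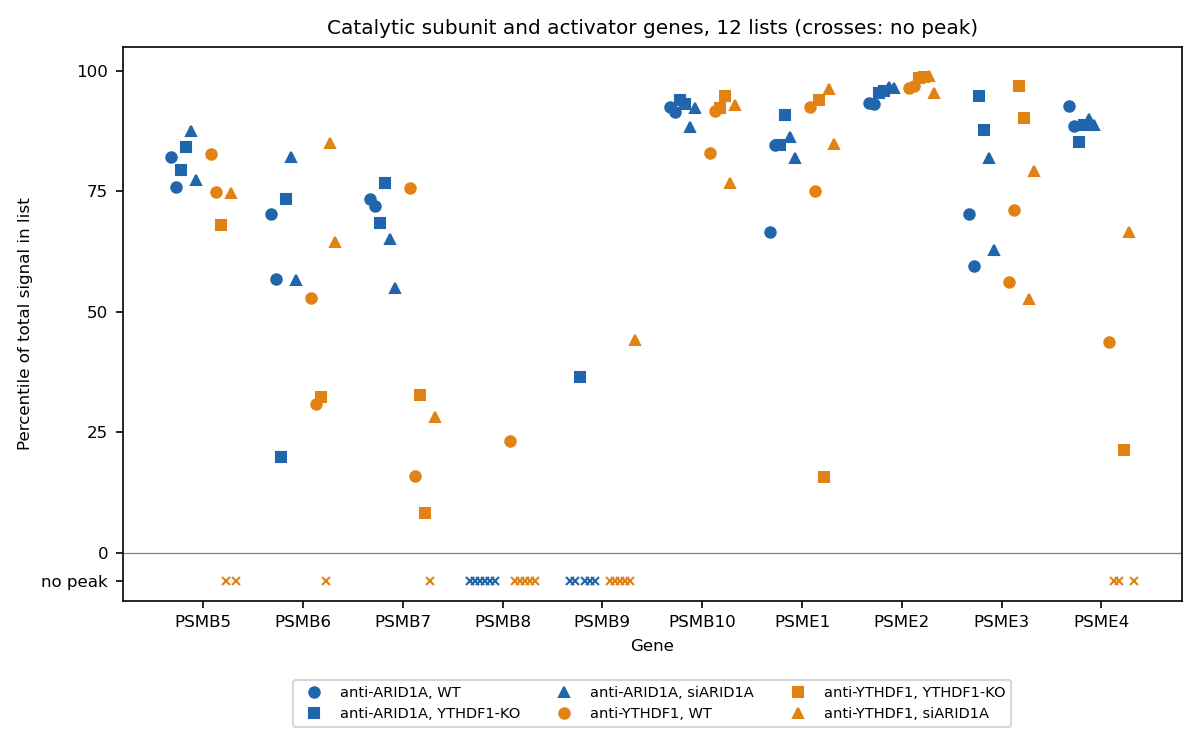
Percentile of the total signal of the strongest peak within its list (vertical axis, crosses at the bottom for no peak) for constitutive catalytic (PSMB5, PSMB6 and PSMB7), immunoproteasome (PSMB8, PSMB9 and PSMB10) and activator genes (horizontal axis). Colours give the antibody and marker shapes the cell condition, 1 marker per list; PSMB10 and PSME2 are near the top in all 12 lists, while PSMB8 and PSMB9 have 1 and 2 peaks.

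PSMB8 (chr6:32840717-32844679) and PSMB9 (chr6:32854192-32859851) lie in the major histocompatibility complex (MHC), on either side of TAP1, with 529 and 487 bases between the genes. Genes around them were also held by few lists. In the interval of chromosome 6 from GPX6 to ZBTB9, 8.72% of 172 protein-coding genes were held by all 6 anti-ARID1A lists, against 53.5% of the other 877 genes of the chromosome. None of the 12 lists held 35.5% of the genes of the interval, against 9.69% of the others. In a single anti-ARID1A list the share was 20.3% to 28.5% in the interval and 65.6% to 76.1% elsewhere on the chromosome. With anti-YTHDF1 the shares were closer, 23.8% to 33.7% and 36.3% to 51.0%. Of class I genes in the interval, TAP1 was in 3 lists, TAP2 in 1, HLA-B and HLA-C in 0 and TAPBP in 8.

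The authors' reference included alternate versions of this interval. Every list held peaks on 7 alternate MHC sequences, 168 to 285 per list, while chromosome 6 itself had 43 to 70 peaks in the interval. PSMB8 and PSMB9 were the only members whose coordinates fell between the first and last peak of an alternate sequence of their chromosome, over all lists, and they did so on 7 such sequences each. Positions on the alternate sequences were not matched to genes, so peaks over other copies of PSMB8 or PSMB9 were not counted, and the part of these sequences in their low counts was not tested. The values for these 2 genes therefore describe peaks placed on chromosome 6 only.

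**Figure D4:**
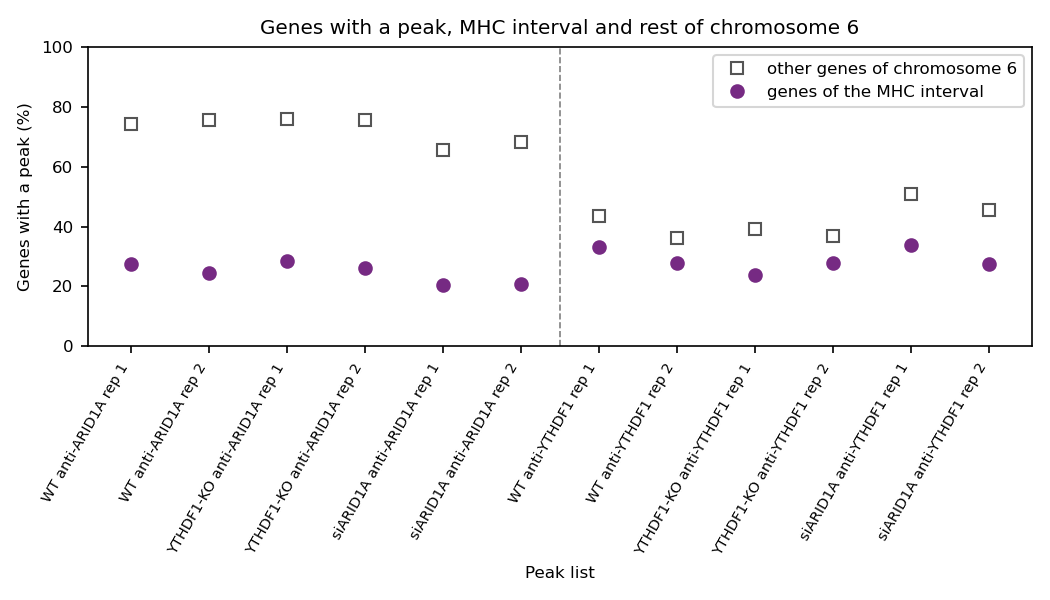
Share of protein-coding genes with a peak (%, vertical axis) in each of the 12 lists (horizontal axis), for the 172 genes of the MHC interval (filled circles) and the other 877 genes of chromosome 6 (open squares). The interval lies below the rest of the chromosome in every list, with the wider gap in the 6 anti-ARID1A lists.

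The PA28 genes PSME1 and PSME2 were in all 12 lists. PSME2 (chr14:24143365-24146610) had percentiles of 93.5, 93.2, 95.4, 95.8, 96.7 and 96.4 with anti-ARID1A and of 96.5, 96.8, 98.5, 98.7, 99 and 95.5 with anti-YTHDF1. PSME2, PSMD3 and PSMD8 were the 3 members above percentile 90 in every list. The peak nearest the start of PSME2 had its highest signal upstream in all lists, between -642 and -182 bp with anti-ARID1A and between -378 and -122 bp with anti-YTHDF1. RNF31, a ubiquitin ligase gene read in the opposite direction, begins 264 bases from PSME2, and the strongest peak was within 1 kb of another gene in all 12 lists. PSME1, 4402 bases from PSME2, was at 66.6, 84.6, 84.7, 90.8, 86.2 and 81.9 with anti-ARID1A. With anti-YTHDF1 it was at 92.5, 75.1, 94.0, 15.6, 96.3 and 84.9, the second YTHDF1-KO list standing apart from the other 5. Its nearest peak was centred on the printed promoter with anti-ARID1A, between -195 and -52 bp.

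The other activators are not tied to the immunoproteasome. PSME3, the nuclear PA28 gamma, was in 12 lists, with percentiles of 70.3, 59.6, 94.9, 87.8, 81.9 and 62.9 for anti-ARID1A and 56.2, 71.2, 96.9, 90.3, 52.6 and 79.3 for anti-YTHDF1. The strongest peak was not at the same place in all lists: in 4 of the 12 it was shared with another gene. PSME4, the PA200 activator, was in all anti-ARID1A lists at 92.8, 88.7, 85.3, 88.8, 90.0 and 88.8 and in 3 anti-YTHDF1 lists at 43.8, 21.2 and 66.7, 1 in each condition. The inhibitor gene PSMF1 was in all 12 lists, with medians of 76.5 and 71.4 for the antibodies.

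Of the 6 ATPase genes of the 19S base, PSMC3, PSMC4 and PSMC5 were in all 12 lists and PSMC6 in 11. PSMC4 kept percentiles of 83.8 to 95.0 with anti-ARID1A and 89.0 to 97.6 with anti-YTHDF1. PSMC1 and PSMC2 stood apart from them. PSMC2 was the ATPase gene in the fewest lists, with anti-ARID1A percentiles of 39.2 and 5.34 in WT and 44.8 and 19.4 in YTHDF1-KO, none in siARID1A cells and none with anti-YTHDF1. PSMC1 was at 45.3, 24.0, 69.1, 80.9, 47.4 and 78.7 with anti-ARID1A. In 7 of the 8 lists that held PSMC1 the strongest peak was shared with the neighbour NRDE2, at the far end of the gene from its start.

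The 11 other subunit genes of the 19S particle gave 65 of 66 pairs with anti-ARID1A and 39 of 66 with anti-YTHDF1. PSMD1, PSMD3, PSMD8 and PSMD11, which encode scaffold and lid subunits, were in all 12 lists. PSMD3 was steady, with percentiles of 96.1, 94.0, 95.9, 96.1, 96.0 and 95.8 for anti-ARID1A and of 94.8, 91.1, 94.6, 92.0, 95.1 and 95.2 for anti-YTHDF1. Its nearest place of highest signal was between -270 and -197 bp in the anti-ARID1A lists and between -486 and -214 bp in the anti-YTHDF1 lists. PSMD11 was at 94.9, 95.6, 96.5, 96.6, 96.9 and 95.4 with anti-ARID1A, but with anti-YTHDF1 at 94.6, 17.2, 95.3, 44.0, 85.6 and 94.4. PSMD6, a lid subunit gene, was the reverse of PSMD3, at 57.6, 47.0, 13.9 and 23.5 in the WT and YTHDF1-KO anti-ARID1A lists and 57.4 in the second siARID1A list, and in no anti-YTHDF1 list.

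PSMD8 (chr19:38374571-38383824), a lid subunit gene, had the highest mean percentile of the members with each antibody. It was at 99.9, 100, 100, 100, 99.8 and 99.8 with anti-ARID1A and at 98.7, 94.7, 99.8, 99.7, 96.5 and 96.6 with anti-YTHDF1. The signal was not that of its promoter alone. The strongest peak was 2.64 to 131.6 kb wide and its place of highest signal had a median of 13313 bp from the start, past the end of the gene, and in 11 of 12 lists the peak was also within 1 kb of another gene. In the anti-YTHDF1 lists a separate peak with its highest signal within 115 bp of the start was also present, at -115 to 110 bp. In 3 of the 6 anti-ARID1A lists such a peak was also present, at 46, 49 and 50 bp. PSMG3, an assembly chaperone gene on chromosome 7 (chr7:1567332-1570032), was likewise under wide peaks of 19.4, 19.2 and 45.2 kb in the WT lists and the first YTHDF1-KO list with anti-ARID1A, at percentiles 99.6, 99.7 and 99.9. In the other 3 anti-ARID1A lists its peak was 2.42 to 3.92 kb wide, at 94.5, 95.3 and 94.5. With anti-YTHDF1 PSMG3 was at 87.9 and 80.5 in WT, 38.5 in the second YTHDF1-KO list and 96.4 and 87.9 in siARID1A cells, with no peak in the first YTHDF1-KO list.

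The 7 assembly chaperone genes (PSMD5, PSMD9, PSMD10 and PSMG1 to PSMG4 by symbol) were held by all 6 anti-ARID1A lists and gave 29 of 42 pairs with anti-YTHDF1. Of these PSMD9 was the one in all 12 lists. PSMG4, whose promoter holds the same 10 letters as those of PSMB10 and PSME2, was in 9 lists, with anti-YTHDF1 percentiles of 38.2 to 63.8. Of the 6 members with the interferon-stimulated core in the promoter, PSMB10, PSME1 and PSME2 were in 12 lists, PSMG4 in 9, PSMB4 in 6 and PSMB8 in 1. PSMC3IP and PSME3IP1, which are not subunits, were in 11 and 12 lists at medians of 91.8 and 94.1 with anti-ARID1A. Their strongest peaks were shared with a neighbouring gene in all lists that held them. PSMC3IP, PSMC5, PSMD12 and PSME3 lie beyond 40 Mb on chromosome 17, where genes in general ranked high. The median percentile of all genes held there was 92.8 to 97 per anti-ARID1A list, against 81 to 85.4 for other genes. With anti-YTHDF1 it was 84.4 to 94.1 against 69.5 to 75.3. PSMD3 (chr17:39980807-39997959) ends just short of 40 Mb and was not counted in this region. The part of the region in the ranks of these 4 members and of PSMD3 was not tested.

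**Figure D5:**
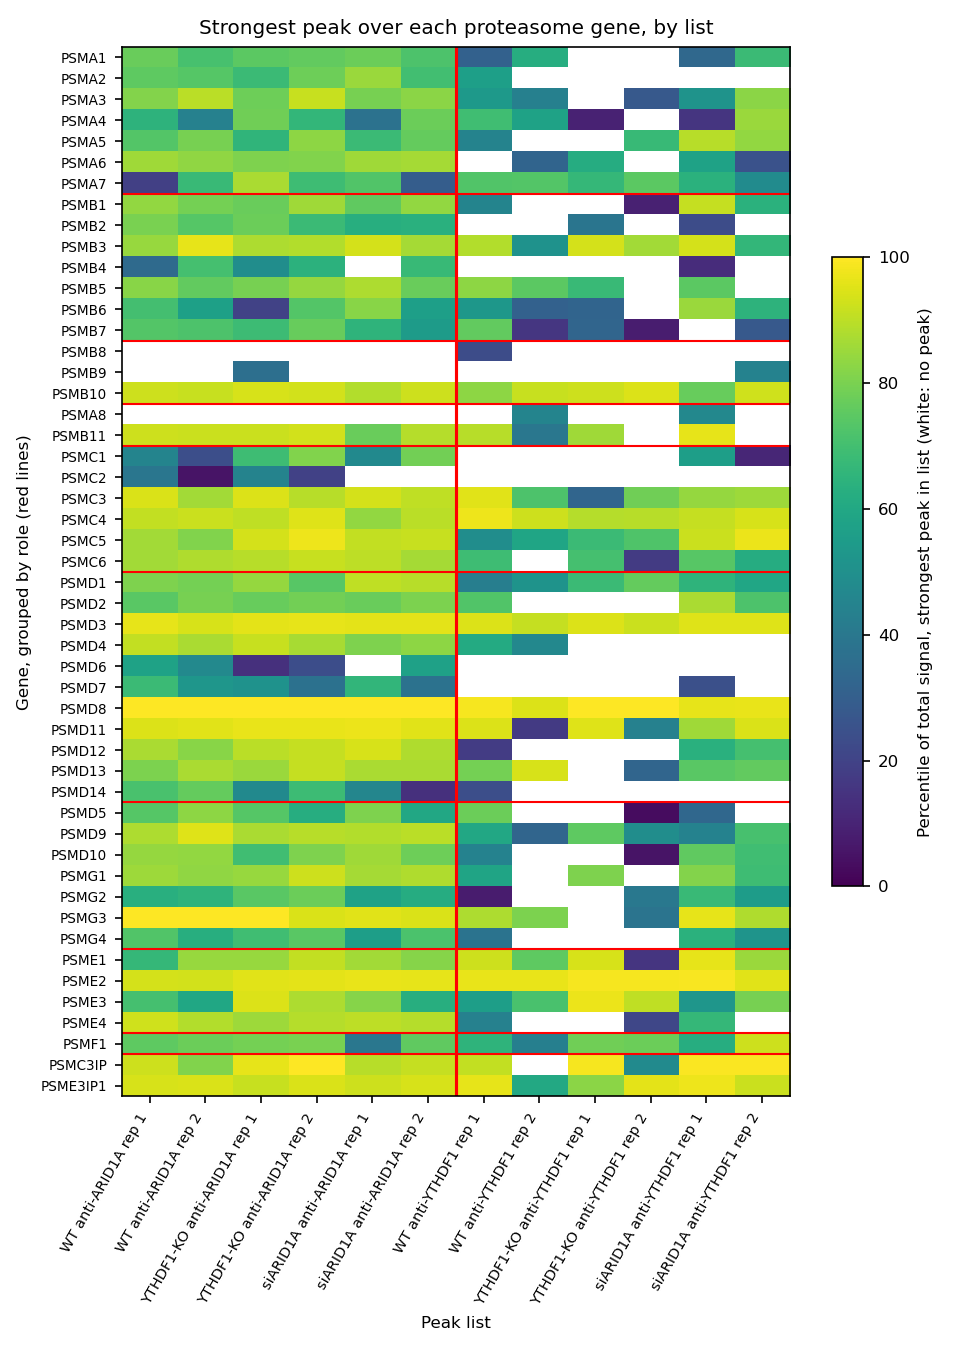
Percentile of the total signal of the strongest peak of each of the 50 genes (rows, grouped by role from alpha subunits at the top to the 2 genes that encode no subunit) in the 12 lists (columns, anti-ARID1A on the left), from 0 (dark) to 100 (yellow), with white for no peak. The left part is nearly filled, PSMB8, PSMB9, PSMA8 and PSMC2 being the rows with most white, and the right part has most of its gaps in the second WT list and the YTHDF1-KO lists.

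The antibodies were compared gene by gene over 6 lists against 6. Of the members, 31 were in more anti-ARID1A lists, 2 (PSMA8 and PSMB8) in fewer, and 17 in equally many. Of all genes, 48.2% were in more and 5.41% in fewer. Members in all anti-ARID1A lists and at most 5 anti-YTHDF1 lists numbered 28, against 33.3% of all genes. By Fisher's exact test with Benjamini-Hochberg adjustment over 11322 genes, 0 members and 0% of the genes tested were called at an adjusted p under 0.05. At an unadjusted p under 0.05, 830 genes (7.33%) had more anti-ARID1A lists and 6 (0.053%) more anti-YTHDF1 lists. Of the members, 4 were in the first group and 0 in the second. The design left little room for a call: 491 genes with 6 lists against 0 would have been needed, and 180 were observed, 178 of them with anti-ARID1A (0.891% of all genes), none of which was a member.

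The 4 members were PSMA2 (6 lists against 1), PSMD7 (6 against 1), PSMD14 (6 against 1) and PSMD6 (5 against 0), each with an exact unadjusted p of 0.0152 and an adjusted p of 0.205 by Fisher's exact test. PSMD7 and PSMD14 encode the pair of lid subunits that includes the deubiquitinase PSMD14. PSMA2, an alpha subunit gene, was at 75, 73.5, 68.0, 77.9, 84.8 and 69.9 with anti-ARID1A and at 56.6 in the first WT anti-YTHDF1 list. It shares its start region with MRPL32, and its strongest peak was shared in all 7 lists. PSMD14 was at 71.4, 76.5, 47.5, 68.6, 46.0 and 13.7, and its single anti-YTHDF1 peak, at 24.2 in the first WT list, lay 88417 bp into the gene. PSMD7 was at 68.1, 52.4, 50.8, 37.2, 65.7 and 37.8 and, in the first siARID1A anti-YTHDF1 list, at 24.4. When only the 2278 genes that could reach an unadjusted p under 0.05 entered the adjustment, a choice made after seeing the data, 836 genes were called. These 4 members were among them, with an adjusted p of 0.0413 by Fisher's exact test. The 836 were all the genes that passed before adjustment, so the adjustment removed none and adds nothing to the unadjusted result.

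Conditions were compared with WT within each antibody by presence in both lists of one and neither of the other. With 2 lists against 2 no test was made, since an exact two-sided permutation test cannot go below 0.33. With anti-ARID1A, 0 members were WT only and 0 YTHDF1-KO only in the comparison of these conditions, patterns that 0.731% and 0.921% of all genes showed. Against siARID1A, PSMC2, whose strongest peak was shared with another gene in all 4 lists that held it, was the 1 member in WT only (2.52% of all genes), and 0 members were in siARID1A only (0.36%). Both lists held 47 members in WT, 47 in YTHDF1-KO and 44 in siARID1A cells, where 78.4%, 78.6% and 70.7% of all genes were held by both. The anti-ARID1A peaks of siARID1A cells covered 98.96 and 128 Mb, against 228 and 266 Mb in WT.

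With anti-YTHDF1 more members had a peak in 1 of the 2 lists of a condition: 17 in WT, 16 in YTHDF1-KO and 10 in siARID1A cells, against 22.9%, 23.9% and 20.1% of all genes. Both lists held 26, 19 and 34 members, against 49.5%, 47.3% and 56.2% of all genes. PSMA1 and PSMD4 were in both WT and neither YTHDF1-KO list (2 members, 2.58% of all genes), and 0 members showed the reverse (1.95%). PSMD4, the 19S ubiquitin receptor gene, was also in WT only against siARID1A (1 member, 1.23% of all genes), and PSMC1 was in siARID1A only (1 member, 2.71%). These shares are near those of all genes. PSMD4 was at 61.2 and 46.6 in the WT anti-YTHDF1 lists and in none of the other 4, while its anti-ARID1A percentiles were 90.8, 87.2, 91.8, 87.0, 80.7 and 83.2. The 2 WT peaks of PSMD4 did not lie at the same place. PSMA1 was at 77.1, 71.0, 74.6, 75.9, 77.5 and 72.0 with anti-ARID1A. With anti-YTHDF1 it was at 31.1 and 62.3 in WT and at 33.7 and 68.2 in siARID1A cells, and its second WT peak lay at -29883 bp from the start, within an annotated span of the gene that reaches far upstream. PSMC1 was at 56.2 and 10.9 in the siARID1A lists.

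Leaving out single lists could only add to these calls, since the condition that lost a list was then judged by its 1 remaining list. Without the first WT anti-YTHDF1 list, which held 41 members against 28 in the second, 11 members were in siARID1A only and 2 in YTHDF1-KO only. Without the second WT list 8 members were in WT only against YTHDF1-KO, 4 in WT only against siARID1A and 2 in siARID1A only. Leaving out the first or second YTHDF1-KO list gave 6 and 5 members in WT only, and leaving out the second gave 1 in YTHDF1-KO only. Without the first siARID1A anti-YTHDF1 list 3 members were in WT only and 2 in siARID1A only, and 7 members in place of 4 passed an unadjusted p under 0.05 between antibodies (Fisher's exact test); without the second, 2 were in WT only and 4 in siARID1A only. With anti-ARID1A, 1 member was in YTHDF1-KO only without the second list of that condition, and 3 were in WT only without the second siARID1A list. The share of all genes under this looser rule was not computed, so these counts are not read as a result about the members.

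Genes that work with the proteasome were followed for comparison. Of 17 genes of proteasome-associated proteins, 15 were held by all 6 anti-ARID1A and 2 by all 6 anti-YTHDF1 lists. Of 10 genes around NFE2L1, its processing and its partners, 10 and 7 were. Of 12 genes of the class I peptide pathway, 5 and 3 were, and 4 were in 0 anti-ARID1A lists. PITHD1 and UBLCP1, which encode proteins that bind the proteasome, were in 6 lists against 1 (unadjusted exact p of 0.0152, adjusted 0.205 by Fisher's exact test). POMP, the maturation factor of the 20S core, was in 3 lists in all, and was in WT only against siARID1A with anti-ARID1A. AKIRIN2, which brings proteasomes into the nucleus, was in both WT anti-YTHDF1 lists and in none of the other 4, as PSMD4 was. DDI2, the protease that cuts NFE2L1, and UBQLN1, a ubiquitin shuttle, were in WT only against siARID1A with anti-YTHDF1 (1.23% of all genes), while NGLY1, which removes sugars from NFE2L1, and USP14, a deubiquitinase of the 19S particle, were in siARID1A only with that antibody (2.71%). Leaving out single lists was not run for these related genes.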

How the data were processed

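CUT&Tag peak lists of 12 samples were used, 1 list per sample, 2 per antibody and cell condition. The submitters' processing notes name SEACR 1.3, which calls peaks, with Bowtie2 2.4.2, fastp 0.23.2, deepTools 3.5.2, bedtools 2.30.0 and SAMtools 1.9, and the build hg38. Settings, and any use of IgG in the calling, were not given in the sources used here. Lists as deposited give each peak's total signal and highest signal, coverage values scaled by the authors per library in a way not given here, so signal was used only as a rank within a list. Sequencing depth is unknown, so no counting error could be given. Groups came from the sample titles.

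Gene positions and starts came from RefSeq tables of GRCh38.p14. Peaks on chromosomes 1 to 22 and X entered the gene calls. A gene was held if a peak overlapped it or 1 kb on either side by 1 bp. Fisher's exact test (two-sided, SciPy 1.17.1, NumPy 2.4.6, Python 3.11.15) compared 6 with 6 lists for genes held by 1 to 11 lists, with Benjamini-Hochberg adjustment. On simulated data with 200 changed genes the test recovered 199 at an unadjusted p under 0.05 and 0 after adjustment. Members, lists of related genes and alternatives were chosen with earlier results of these data known. Values per list were given for the catalytic, immunoproteasome, activator and tissue-specific genes, for members that passed an unadjusted p under 0.05 or showed a condition pattern, for members in at most 3 lists, and for the 3 of highest mean percentile per antibody. Alternatives were other windows, overlaps, list lengths, blocks and leaving out lists. The promoters of PSMB5 and PSMB8 were not printed because the stretch lies inside the annotated gene. Values of 2 genes of the marker and class I lists are not reported here.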

Additional observations from a re-analysis of the deposited data

Results flagged for a closer look

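Peaks on the alternate MHC sequences of the reference were outside the gene calls, which used chromosomes 1 to 22 and X. They numbered 168 in the list with fewest and 285 in the list with most, and they lay on 7 sequences in every list. No control lists were analysed here. Among the proteasome genes only PSMB8 and PSMB9 have coordinates between the first and last of these peaks, and the sequences were not matched to genes.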

How the results depend on the processing

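Gene windows and list lengths moved the small counts of condition patterns and the counts for anti-YTHDF1. The number of members in all anti-ARID1A lists, 44, stayed within 1.5 times under each alternative run for it, and so did the pairs of the constitutive and immunoproteasome catalytic genes, 32 and 15, under the other windows around the whole gene or its ends, the place of highest signal, the stronger 50%, the shortest length and leaving out each list. The number in all anti-YTHDF1 lists, 16, was 24 with 5 kb on either side of the gene. It was 8 with the stronger 50% of each list, 10 with 1 kb around the start and 10 without chromosomes 2, 9 and 17. The last of these only takes out PSMD1 on chromosome 2 and PSMB3, PSMC5, PSMD3, PSMD11 and PSME3 on chromosome 17. PSMA7 has no start in the table and could not count in the start window. In the condition patterns that follow, a number in brackets counts all genes with the same pattern, out of 19974. With 5 kb on either side of the gene, 0 members (461) were in WT only against siARID1A with anti-ARID1A. With anti-YTHDF1, 0 members (237) were in WT only against siARID1A, 1 (481) in WT only against YTHDF1-KO and 3 (530) in siARID1A only. With 1 kb around either annotated end, 2 members (755) were in WT only against siARID1A with anti-ARID1A. In this setting 0 members showed that pattern with anti-YTHDF1. With the place of highest signal in the window, 2 (299) were in siARID1A only with anti-ARID1A and 2 (565) with anti-YTHDF1. With the stronger 50%, 1 (239) was in YTHDF1-KO only with anti-ARID1A. For anti-YTHDF1 in this setting, 0 (243) were in WT only against siARID1A and 6 (610) in siARID1A only. With lists cut to the shortest, anti-ARID1A gave 1 (193) in YTHDF1-KO only, 0 (443) in WT only against siARID1A and 1 (233) in siARID1A only. In this setting anti-YTHDF1 gave 2 (386) in WT only against siARID1A and 2 (423) in siARID1A only. Between antibodies, 2 members then passed an unadjusted p under 0.05 (Fisher's exact test), where 534 of all genes did. With 1 kb around the start, 4 members (581) were in WT only against YTHDF1-KO and 0 (202) in WT only against siARID1A with anti-YTHDF1. Here the number of all genes with a start was 15795. The cause of the other shifts was not tested. When only the 2278 genes that could reach an unadjusted p under 0.05 (Fisher's exact test) were adjusted, 836 genes were called, 4 of them members. This alternative was added after seeing the data. The 836 were all the genes that passed before adjustment, so the adjustment removed none and adds nothing to the unadjusted result.

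The mean of the 2 lists' median percentiles of the members held was 81.2, 84.1 and 84.1 in WT, YTHDF1-KO and siARID1A with anti-ARID1A, and 64.4, 68.8 and 74.3 with anti-YTHDF1. By the highest in place of the total signal it was 87.4, 91.1 and 89.2 with anti-ARID1A, 76.8 in WT and 86.4 in siARID1A with anti-YTHDF1. Around either end it was 80.9 in WT with anti-ARID1A, and 72.0 and 78.1 in WT and siARID1A with anti-YTHDF1, and without a flank 75.8 in siARID1A with anti-YTHDF1.

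Leaving out each list in turn gave 44 to 46 members in all anti-ARID1A lists and 16 to 19 in all anti-YTHDF1 lists, 0 to 0 called and 4 to 7 at an unadjusted p under 0.05 between antibodies. Patterns with anti-ARID1A ranged from 0 to 1 (YTHDF1-KO only) and 1 to 3 (WT only against siARID1A). With anti-YTHDF1 they ranged from 2 to 8 (WT only against YTHDF1-KO), 0 to 2 (YTHDF1-KO only), 1 to 4 (WT only against siARID1A) and 1 to 11 (siARID1A only). Shares of all genes were not computed for these ranges. With the replicate number as a block the antibody test called 0 members, 4 passed an unadjusted p under 0.05 and no call changed. Samples of the same number did not deviate together: the correlation of their deviations was -0.0150 to 0.00965 over 15 pairs of groups. Between antibodies, 0 genes were called by adjusted p in 10 settings and 534 to 1612 passed an unadjusted p under 0.05. The 6 against 6 design and the unknown depth limit what could be called.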
